A study of Homo sapiens with 6 samples.

Results

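Messenger RNAs of intracellular calcium handling were compared in T47D cells with and without knockdown of CUEDC1. The set holds the genes for store-operated entry, release from the endoplasmic reticulum, calcium pumps, mitochondrial uptake, TRP and two-pore channels, calmodulin and its kinases, calcineurin, and the NFAT factors with the RCAN regulators. Members were chosen by gene symbol from a list of 49, of which 48 have a row among the 17758 genes of the deposited table and MICU3 is not analysed here. T47D is an oestrogen receptor-positive line of human breast ductal carcinoma cells. In the shCUEDC1 group (3 libraries) the cells stably carried lentiviral short hairpin RNA against CUEDC1, and in the shNC group (3 libraries) they carried a non-targeting hairpin from the same kind of vector. All were grown in a standard medium with serum, and no label gives a further treatment. The number of hairpins is not given, and neither is whether the replicates were infected separately. The tests therefore rest on the spread among 3 libraries a group, which may be partly technical, and what a hairpin does to other transcripts cannot be told apart from the knockdown.

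Resting cells keep cytosolic calcium low by pumping it into the endoplasmic reticulum and Golgi and out across the plasma membrane. Hormone and growth factor receptors that activate phospholipase C produce IP3, which opens IP3 receptors of the endoplasmic reticulum. STIM proteins sense the emptied store and open ORAI channels in the plasma membrane. Calcium then binds calmodulin, which switches on calmodulin kinases and the phosphatase calcineurin, and calcineurin sends NFAT transcription factors into the nucleus. In mammary epithelium these pumps and channels also move calcium into milk, and several of them are studied in breast cancer cells. The title of the series names CACNG4, an auxiliary subunit of voltage-gated calcium channels, which is not among the members.

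Libraries held between 18924300 and 19731600 estimated reads, and 13824 genes were tested. CUEDC1, on chr17:57861243-57955323 (GRCh38, minus strand), stood at 31.4, 33.8 and 32.0 CPM in shCUEDC1 1, 2 and 3, against 109.6, 109 and 93.3 CPM in shNC 1, 2 and 3 (log2 change -1.68, SE 0.0755, adjusted p by edgeR = 9.27e-06). CPM are counts scaled to a common library size, here with TMM factors. Luminal epithelial markers, 9 of 9 in the table, summed to between 12310 and 12731 TPM in shCUEDC1 and between 10220 and 12702 TPM in shNC, where TPM is the deposited level per transcript length. Endothelial markers, 3 of 3, summed to at most 0.30 TPM in shCUEDC1 and 0.15 TPM in shNC. Of 4 fibroblast markers 1 was called higher, and their summed level was 13.6 to 17.1 TPM in shCUEDC1 and 9.51 to 12.0 TPM in shNC. The summed level of 5 basal markers was 25.0 to 29.1 TPM in shCUEDC1 and 21.1 to 44.5 TPM in shNC, that of 4 leukocyte markers 7.21 to 7.38 TPM in shCUEDC1 and 6.72 to 8.04 TPM in shNC, and none of the markers was at 0 in all libraries. The part of these levels in the results was not tested. The library shNC 3 stood apart. The SD of its log2 difference from shNC 1 and shNC 2 was 0.246 and 0.266 over genes of at least 10 CPM, against 0.109 between shNC 1 and shNC 2 and 0.127 to 0.131 between shCUEDC1 libraries. Results are therefore given with and without shNC 3 where that moves them. No label gives a reason to leave shNC 3 out, and it was singled out by these values. The fits without it rest on shNC 1 and shNC 2, which lie close together. Their p-values are thus likely too small as a measure of the spread among control libraries. Called genes rose from 1377 with 6 libraries to 3925 without shNC 3.

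Most of the calcium-handling messenger RNAs differed little between the groups. NFATC2, the IP3 receptor ITPR1, the kinase CAMKK1 and the scarce ryanodine receptor RYR1 fell, while the secretory pathway pump ATP2C2, the cation channel TRPM4 and the mitochondrial protein LETM1 rose. Of 45 members tested, 7 were called (edgeR quasi-likelihood test, Benjamini-Hochberg adjusted p below 0.05 over all 13824 genes), 3 higher and 4 lower, against 9.96% of all genes tested, with 5.19% called higher and 4.77% called lower. The 7 make up 15.6% of the members tested. The members were chosen with earlier results of these data known, so this share is not independent of those results. The median log2 difference of shCUEDC1 over shNC was -0.03 for the members and -0.004 for all genes, and the median size of the difference was 0.10 for the members and 0.12 for all genes. Of the 7 called members 5 changed by less than 1.5-fold, and only RYR1 by more than 2-fold. For 15 members (33.3%) the groups did not overlap, 6 with shCUEDC1 higher and 9 with it lower, against 31.3% of all genes tested (15.7% higher and 15.6% lower). Of the 38 members not called, 34 had a 95% interval within 0.5 of 0 on the log2 scale, as had 74.3% of all genes not called. The exceptions were ATP2A3, TRPC1, CAMK2B and CAMK2D.

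**Figure D1:**
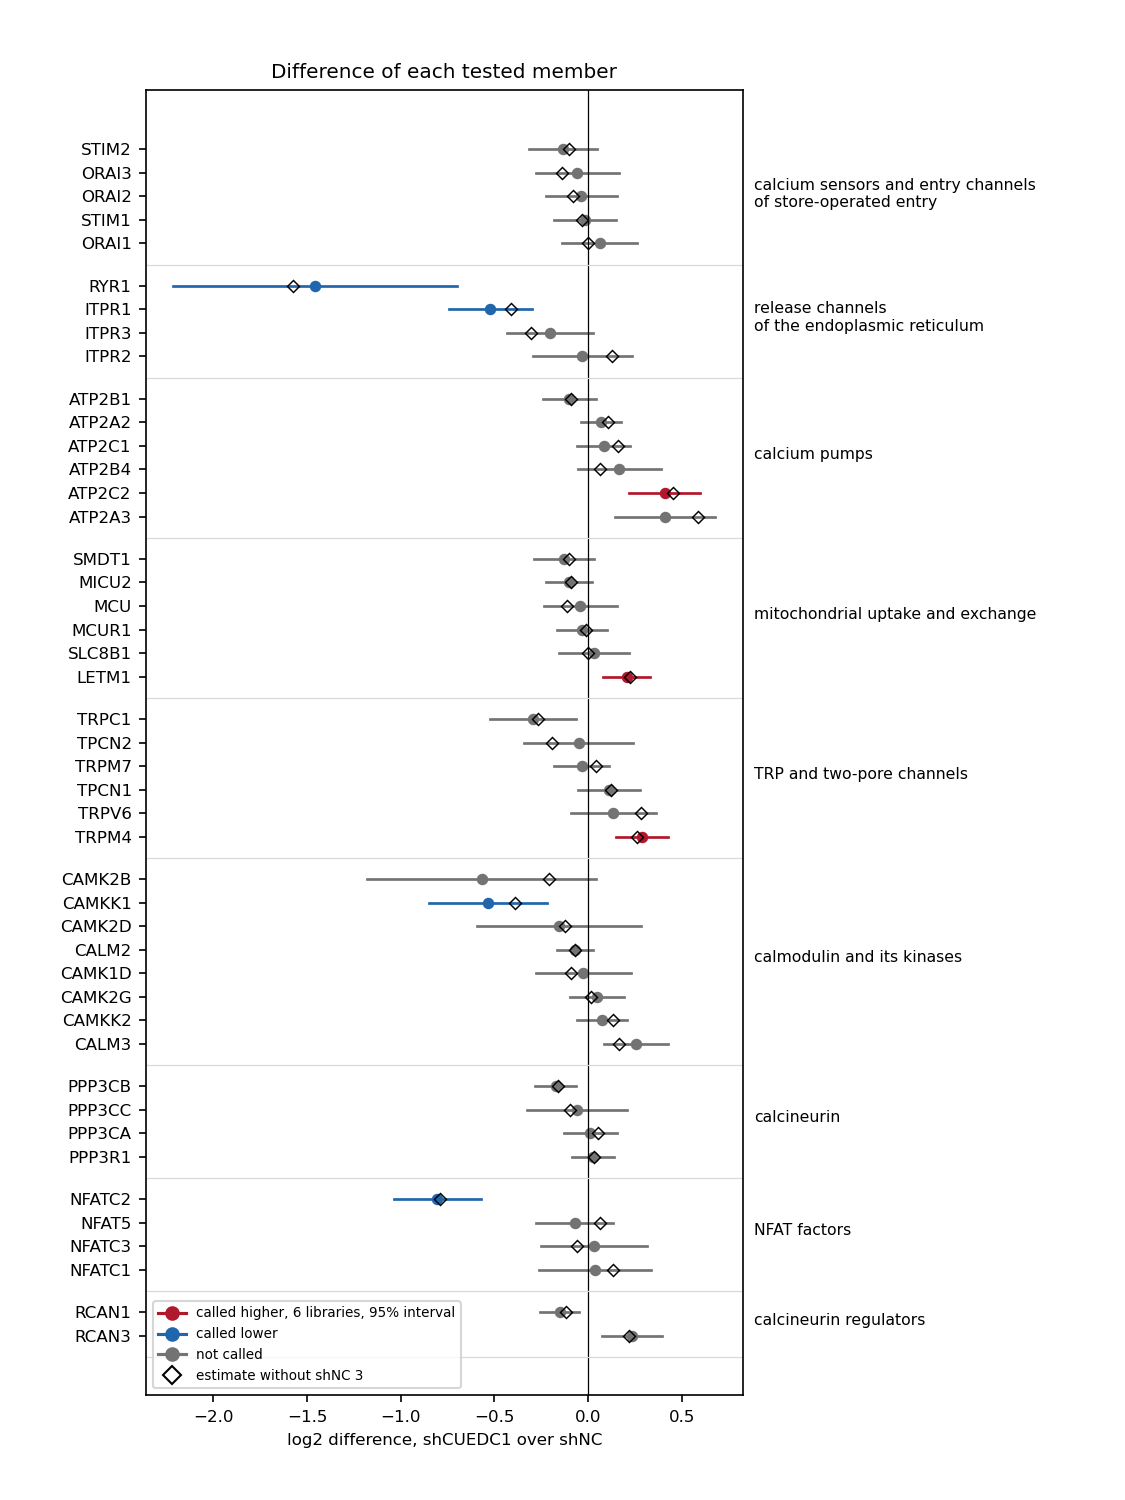
Log2 difference of shCUEDC1 over shNC for the 45 tested members, by role, as points with 95% intervals from all 6 libraries (edgeR) and as open diamonds without shNC 3. The 7 called members are coloured, with NFATC2 at -0.80 and ATP2C2 at 0.41, and most of the others lie close to 0.

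Leaving out shNC 3 raised the number of called members to 17, 10 higher and 7 lower, against 28.1% of all genes tested without that library (14.3% higher and 13.8% lower). The 17 included all 7 of the calls made with 6 libraries, and they make up 37.8% of the members. The added members were ITPR3, PPP3CB and RCAN1 among the lower, and ATP2A2, ATP2A3, ATP2C1, TRPV6, CALM3, CAMKK2 and RCAN3 among the higher. Leaving out any 1 shCUEDC1 library left 1 called member, NFATC2, against 3.66%, 3.34% and 3.71% of all genes without shCUEDC1 1, 2 and 3. Without shNC 1 or shNC 2 there were 4 and 5 called members, against 4.93% and 7.26% of all genes. With all 6 libraries, 7 members were called with RLE factors, with no filter on low counts and by DESeq2, against 10.0%, 7.97% and 10.6% of all genes. The 7 by DESeq2, 4 higher and 3 lower, included ATP2A3 and CALM3 and left out RYR1 and LETM1. With a filter of at least 1 CPM in 3 libraries 6 members were called (10.5%). By limma-trend 6 were called on log2(FPKM + 0.5) (8.28%) and 6 on log2(FPKM + 0.1) (8.31%). In both limma-trend fits 2 were higher and 4 lower, and RYR1 and LETM1 were not called. Both fits called ATP2C2 and TRPM4 higher and ITPR1, CAMKK1 and NFATC2 lower. The remaining lower call in each was a member not called by edgeR with 6 libraries.

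The members spanned a wide range of levels per length. CALM2, a calmodulin gene, had the highest mean over the 6 libraries (1004 TPM), followed by RCAN1 (312 TPM), the endoplasmic reticulum pump ATP2A2 (244 TPM), CALM3 (153 TPM) and the Golgi pump ATP2C1 (100.1 TPM). In all, 9 members averaged above 50 TPM, 19 lay between 10 and 50 TPM, 16 between 1 and 10 TPM and 4 under 1 TPM. The 4 scarce members were ATP2B2, SLC8A1, RYR1 and RCAN2. NFATC2 (2.41 TPM), ITPR1 (4.22 TPM) and CAMKK1 (4.83 TPM), which fell, averaged between 1 and 10 TPM.

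**Figure D2:**
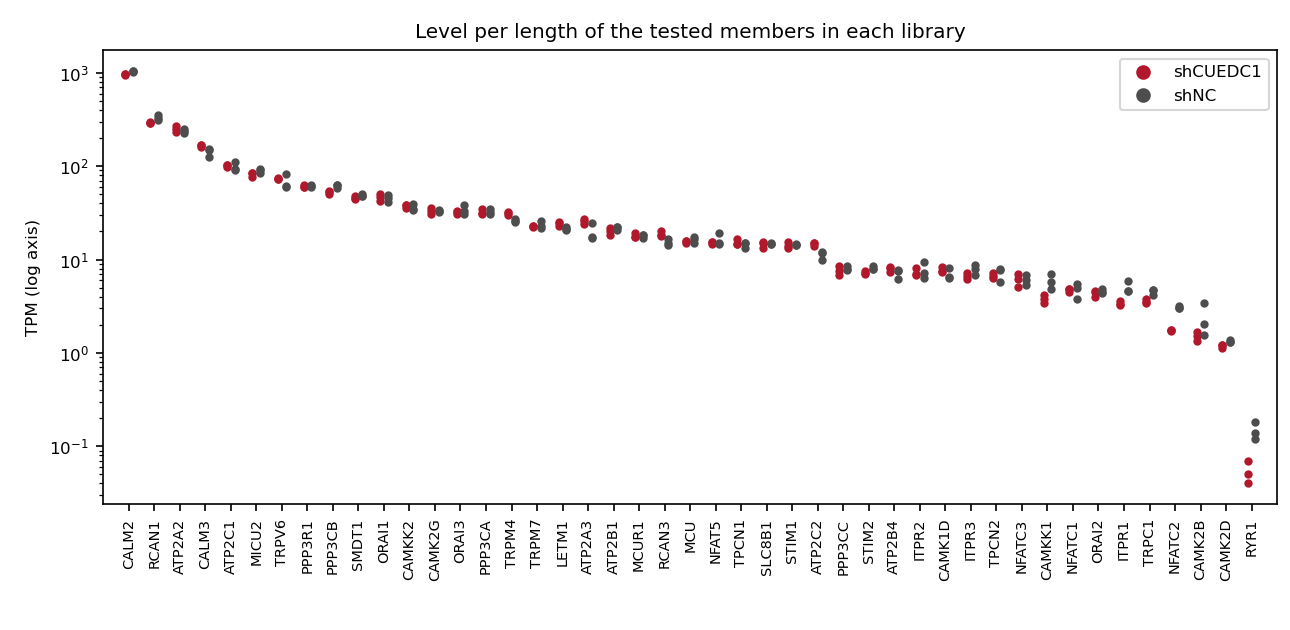
Deposited TPM (log axis) of each tested member in each library, ordered by mean level, with shCUEDC1 left of shNC. Levels run from about 1004 TPM for CALM2 to 0.10 TPM for RYR1.

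Store-operated entry genes did not pass the test in either direction, 0 of 5, where 9.96% of all genes tested were called. So few genes a role cannot show whether a role differs from that share. STIM1 and STIM2 encode the sensors of luminal calcium, and ORAI1, ORAI2 and ORAI3 the channel subunits. ORAI1 had the highest level per length, 46.7 ± 3.89 TPM in shCUEDC1 and 45.5 ± 3.61 TPM in shNC (SD, n = 3 each, as for every mean ± SD here). It stood at 35.3, 30.1 and 34.3 CPM in shCUEDC1 1, 2 and 3, against 32.2, 34.6 and 28.6 CPM in shNC 1, 2 and 3, and the groups overlapped. Its log2 difference was 0.06 (-0.14 to 0.26 as 95% interval, adjusted p by edgeR = 0.721). The shares of the family overlapped between the groups: ORAI1 made up 56.1 ± 2.59% in shCUEDC1 and 54.2 ± 1.05% in shNC of the summed ORAI TPM, and ORAI3 38.6 ± 2.56% in shCUEDC1 and 40.4 ± 1.25% in shNC. Counts of ORAI3 are uncertain, since 52.9% of its exon bases are shared with a same-strand transcript. STIM1 differed by -0.01 (-0.18 to 0.15), STIM2 by -0.13 (-0.31 to 0.05), ORAI2 by -0.04 (-0.23 to 0.15) and ORAI3 by -0.06 (-0.28 to 0.16) on the log2 scale.

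Of the release channels of the endoplasmic reticulum, ITPR1 and RYR1 fell, while ITPR2 and ITPR3 did not pass the test with 6 libraries. IP3 receptors are the main release channels of epithelial cells. ITPR1 (chr3:4493345-4847840, GRCh38, plus strand) stood at 16.7, 16.0 and 15.9 CPM in shCUEDC1 1, 2 and 3, against 21.5, 21.6 and 26.7 CPM in shNC 1, 2 and 3. Every shCUEDC1 library was below every shNC library, and shNC 3 was the highest of all. ITPR1 fell by 30.3%, a log2 change of -0.52 (SE 0.0995, adjusted p by edgeR = 0.0107). Without shNC 3 the log2 change was -0.41 (adjusted p by edgeR = 2.90e-04). The call was lost without shCUEDC1 1, 2 or 3, with adjusted p by edgeR of 0.0516, 0.0663 and 0.0684. In bulk RNA, less of a transcript per cell and fewer cells that express it cannot be told apart.

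The other IP3 receptors deviated in opposite directions in shNC 3. ITPR2 stood at 44.3, 39.7 and 39.5 CPM in shCUEDC1 1, 2 and 3, against 40.0, 35.6 and 50.5 CPM in shNC 1, 2 and 3, with shNC 3 the highest and the groups overlapping (log2 difference -0.03, 95% interval -0.30 to 0.23). ITPR3 (chr6:33620365-33696574, GRCh38, plus strand) stood at 26.2, 30.1 and 28.7 CPM in shCUEDC1 1, 2 and 3, against 33.5, 36.6 and 27.7 CPM in shNC 1, 2 and 3. Here shNC 3 was the lowest of the shNC libraries and lay within the range of shCUEDC1. The log2 difference of ITPR3 was -0.20 (adjusted p by edgeR = 0.258) with 6 libraries and -0.30 (adjusted p by edgeR = 0.00141) without shNC 3, where it was called lower. Of its exon bases, 10.4% overlap UQCC2 on the opposite strand, and whether counting used strand is not known. The summed level of the 3 IP3 receptors was 17.4 ± 0.60 TPM in shCUEDC1 and 20.5 ± 1.44 TPM in shNC, and the 3 shCUEDC1 libraries lay below the 3 shNC libraries. ITPR1 made up 19.6 ± 0.349% in shCUEDC1 and 24.5 ± 1.83% in shNC of that sum, without overlap between the groups.

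RYR1, the ryanodine receptor of skeletal muscle, had few reads in every library. Its estimated counts were 6, 10 and 6.99 in shCUEDC1 1, 2 and 3, against 25.7, 21 and 17 in shNC 1, 2 and 3. The groups did not overlap, and the log2 change was -1.46 (SE 0.339, adjusted p by edgeR = 0.0255). The call held without shNC 3 (adjusted p by edgeR = 0.00279) and was lost without any other single library: without shCUEDC1 1, 2 and 3 the adjusted p by edgeR was 0.121, 0.0672 and 0.109, and without shNC 1 and 2 it was 0.103 and 0.0569. By DESeq2 the adjusted p was 0.0685.

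Among the calcium pumps 1 of 6 tested rose, ATP2C2, and none fell, where 9.96% of all genes tested were called. ATP2C1 and ATP2C2 encode SPCA pumps of the Golgi and secretory pathway, and ATP2C2 is known for its expression in mammary epithelium, where in mice it rises with lactation. ATP2C2 (chr16:84368527-84464187, GRCh38, plus strand) stood at 25.3, 26.4 and 24.6 CPM in shCUEDC1 1, 2 and 3, against 17.3, 20.1 and 20.2 CPM in shNC 1, 2 and 3. All shCUEDC1 libraries were above all shNC libraries. The log2 change was 0.41 (95% interval 0.22 to 0.60, adjusted p by edgeR = 0.0152), a rise of 32.7%. Without shCUEDC1 1, 2 and 3 its adjusted p by edgeR was 0.0716, 0.0891 and 0.0599, and without shNC 1 it was 0.0628. An antisense gene, ATP2C2-AS1, overlaps 26.2% of its exon bases, so reads of the 2 genes cannot be told apart unless counting used strand. Without shNC 3 the log2 change of ATP2C2 was 0.45 (adjusted p by edgeR = 7.50e-05). The ubiquitous ATP2C1 was not called with 6 libraries (log2 difference 0.08, 95% interval -0.06 to 0.22) and was called without shNC 3 (0.16, adjusted p by edgeR = 0.00344). ATP2C2 made up 12.6 ± 0.0920% in shCUEDC1 and 10.3 ± 1.11% in shNC of the summed SPCA TPM, without overlap between the groups.

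The SERCA pumps, which refill the endoplasmic reticulum, did not pass the test with 6 libraries. ATP2A2, the housekeeping SERCA2, was the most abundant pump, at 249.98 ± 18.3 TPM in shCUEDC1 and 239 ± 12.9 TPM in shNC. It stood at 722, 713 and 679.7 CPM in shCUEDC1 1, 2 and 3, against 659.6, 653 and 703 CPM in shNC 1, 2 and 3, with a log2 difference of 0.07 (95% interval -0.04 to 0.18, adjusted p by edgeR = 0.412), and the groups overlapped. Without shNC 3 it was called, at 0.11 (adjusted p by edgeR = 0.0346). ATP2A3, the SERCA3 of epithelial and blood cells, stood at 58.2, 62.0 and 56.4 CPM in shCUEDC1 1, 2 and 3, against 39.6, 39.1 and 54.1 CPM in shNC 1, 2 and 3. The groups did not overlap, and shNC 3 lay much closer to shCUEDC1 than shNC 1 and 2 did. The log2 difference of ATP2A3 was 0.41 (SE 0.118, adjusted p by edgeR = 0.0615) with 6 libraries and 0.58 (adjusted p by edgeR = 2.44e-09) without shNC 3, and DESeq2 called it with 6 libraries (adjusted p = 0.00926). ATP2A3 made up 9.31 ± 0.504% in shCUEDC1 and 7.58 ± 1.11% in shNC of the summed SERCA TPM. ATP2A3 lies on chr17:3923870-3964464 (GRCh38, minus strand), close to CAMKK1, which fell.

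Plasma membrane pumps, which carry calcium out of the cell, were not called. ATP2B1 differed by -0.10 (95% interval -0.24 to 0.04) and ATP2B4 by 0.17 (-0.05 to 0.39) on the log2 scale. ATP2B2, which carries calcium into milk in lactating mice, had estimated counts of 0, 0 and 0 in shCUEDC1 1, 2 and 3 and 1, 1 and 2 in shNC 1, 2 and 3, and was not tested. The sodium-calcium exchanger SLC8A1, the other route out of the cell, was also under the count filter, with estimated counts of 6.38, 1.01 and 3.11 in shCUEDC1 1, 2 and 3 and 2.02, 8.79 and 5.36 in shNC 1, 2 and 3.

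**Figure D3:**
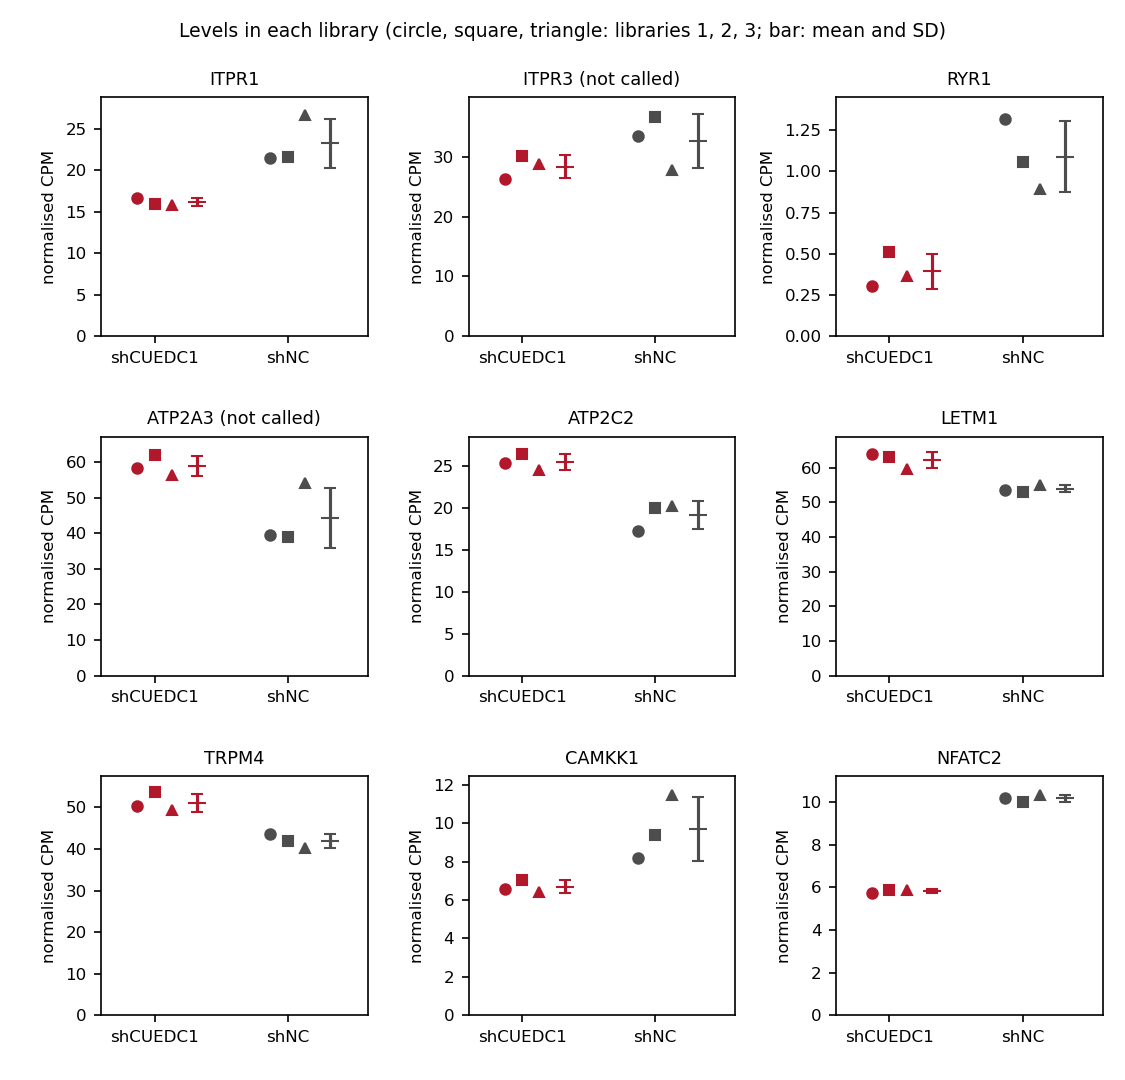
Normalised CPM in each library (circle, square and triangle for libraries 1, 2 and 3, with bars for mean and SD, n = 3) for the 7 called members and for ITPR3 and ATP2A3, which were called without shNC 3. NFATC2 was at 5.82 ± 0.0924 CPM in shCUEDC1 and 10.2 ± 0.178 CPM in shNC, and shNC 3 is the triangle that lies apart in the panels of ITPR1, ITPR3, ATP2A3 and CAMKK1.

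Among genes of mitochondrial calcium uptake and exchange, 1 of 6 tested rose and none fell, against 9.96% of all genes called. LETM1, an inner membrane protein of cation and proton exchange, stood at 63.9, 63.1 and 59.6 CPM in shCUEDC1 1, 2 and 3, against 53.6, 53.1 and 55.1 CPM in shNC 1, 2 and 3. The groups did not overlap. LETM1 lies on chr4:1811479-1856247 (GRCh38, minus strand) and rose by 0.21 on the log2 scale (SE 0.0558, adjusted p by edgeR = 0.0466). It was called without shNC 3 (0.22, adjusted p by edgeR = 0.00164) and lost its call without any other single library: the adjusted p by edgeR was 0.184, 0.181 and 0.0850 without shCUEDC1 1, 2 and 3, and 0.139 and 0.120 without shNC 1 and 2. DESeq2 gave an adjusted p of 0.0599. The uniporter itself was not called. MCU, the pore, differed by -0.04 (95% interval -0.24 to 0.15), its regulator SMDT1 by -0.13 (-0.29 to 0.03) and the scaffold MCUR1 by -0.03 (-0.17 to 0.10). MICU2, the gatekeeper and the most abundant of this group at 82.3 ± 4.32 TPM in shCUEDC1 and 89.96 ± 3.90 TPM in shNC, stood at 75.0, 76.2 and 70.8 CPM in shCUEDC1 1, 2 and 3, against 82.0, 76.1 and 80.0 CPM in shNC 1, 2 and 3. Its groups overlapped, with a log2 difference of -0.10 (-0.22 to 0.02). SLC8B1, the mitochondrial sodium-calcium exchanger, differed by 0.03 (-0.16 to 0.22).

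Of the TRP and two-pore channels, 1 of 6 rose and none fell, against 9.96% of all genes called. TRPM4, a calcium-activated channel that conducts monovalent cations, stood at 50.2, 53.6 and 49.5 CPM in shCUEDC1 1, 2 and 3, against 43.5, 41.8 and 40.3 CPM in shNC 1, 2 and 3. Each shCUEDC1 library was above each shNC library. TRPM4 (chr19:49157741-49211836, GRCh38, plus strand) rose by 21.9%, a log2 change of 0.29 (SE 0.0618, adjusted p by edgeR = 0.0183). Without shNC 3 it rose by 0.26 (adjusted p by edgeR = 7.91e-04), and without shCUEDC1 1, 2 and 3 the adjusted p by edgeR was 0.0724, 0.107 and 0.0599. TRPV6, a calcium-selective entry channel of absorptive epithelia, had the highest level per length of these channels, 73.4 ± 1.46 TPM in shCUEDC1 and 68.3 ± 12.6 TPM in shNC. It stood at 104, 102 and 104 CPM in shCUEDC1 1, 2 and 3, against 84.0, 86.1 and 112 CPM in shNC 1, 2 and 3. The shNC 3 library was the highest of the 6, and the other shNC libraries were the lowest. The log2 difference of TRPV6 was 0.13 (adjusted p by edgeR = 0.452) with 6 libraries and 0.28 (adjusted p by edgeR = 1.17e-05) without shNC 3. TRPC1, a receptor-linked cation channel, differed by -0.29 (95% interval -0.53 to -0.06, adjusted p by edgeR = 0.106), and the groups did not overlap. TRPM7, a channel fused to a kinase, differed by -0.03 (-0.18 to 0.11). The lysosomal channels TPCN1 and TPCN2 differed by 0.11 (-0.06 to 0.28) and -0.05 (-0.34 to 0.24).

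CALM2 and CALM3 are separate genes that encode the same calmodulin protein. The first 90 of 450 coding bases of CALM2 and CALM3 are shown because the 2 genes differ there at many single bases, which capitals mark (GENCODE v29 transcripts).
CALM2: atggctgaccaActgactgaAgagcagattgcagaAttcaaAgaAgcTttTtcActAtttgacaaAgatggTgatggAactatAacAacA
CALM3: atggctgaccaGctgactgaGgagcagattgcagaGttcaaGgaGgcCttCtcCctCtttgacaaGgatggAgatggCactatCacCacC
Over the whole coding sequence 81.8% of bases are identical, and the longest identical run is 17 bases. Of the 50-base stretches of CALM2 transcripts 2.53% also occur in transcripts of other genes, pseudogenes included, and of CALM3 transcripts 0%. Genes on the opposite strand overlap 10.9% of the CALM3 exon bases. CALM2 stood at 554, 548 and 578 CPM in shCUEDC1 1, 2 and 3, against 594, 586 and 583 CPM in shNC 1, 2 and 3. It was lower in every shCUEDC1 library than in any shNC library, with a log2 difference of -0.07 (95% interval -0.17 to 0.03, adjusted p by edgeR = 0.347). CALM3 stood at 173, 176 and 172 CPM in shCUEDC1 1, 2 and 3, against 154, 157 and 126 CPM in shNC 1, 2 and 3, with shNC 3 the lowest. Its groups did not overlap either, with the opposite sign, 0.26 (SE 0.0770, adjusted p by edgeR = 0.0665), and it was called without shNC 3 (0.17, adjusted p by edgeR = 0.00228) and by DESeq2 with 6 libraries (adjusted p = 0.0267).

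Among the calmodulin-dependent kinases CAMKK1 fell and the other 5 tested were not called, against 9.96% of all genes called. CAMKK1 and CAMKK2 phosphorylate and activate downstream kinases, among them AMPK. CAMKK1 (chr17:3860315-3894891, GRCh38, minus strand) stood at 6.58, 7.06 and 6.43 CPM in shCUEDC1 1, 2 and 3, against 8.20, 9.38 and 11.5 CPM in shNC 1, 2 and 3. The groups did not overlap, and shNC 3 was the highest. CAMKK1 fell by 30.9%, a log2 change of -0.53 (SE 0.140, adjusted p by edgeR = 0.0405), and the estimate without shNC 3 was -0.39 (adjusted p by edgeR = 0.0175). Without shCUEDC1 1, 2 and 3 the adjusted p by edgeR was 0.151, 0.120 and 0.158, and without shNC 2 it was 0.0696. The more abundant CAMKK2, an androgen-induced gene in prostate cells, differed by 0.07 (95% interval -0.06 to 0.21) and was called without shNC 3 (0.13, adjusted p by edgeR = 0.0315). CAMKK1 made up 9.20 ± 0.572% in shCUEDC1 and 13.9 ± 1.42% in shNC of the summed level of the pair, without overlap. CAMK2G supplied most of the CaMKII messenger RNA, 92.4 ± 0.925% in shCUEDC1 and 89.7 ± 2.45% in shNC, and differed by 0.05 (-0.10 to 0.19). CAMK2B stood at 2.65, 2.30 and 3.21 CPM in shCUEDC1 1, 2 and 3, against 3.44, 2.87 and 5.82 CPM in shNC 1, 2 and 3, with shNC 3 well above the rest and a wide interval (-1.18 to 0.04). Its log2 difference was -0.57 with 6 libraries and -0.21 without shNC 3, and it was called in neither fit. CAMK2D and CAMK1D differed by -0.15 (-0.59 to 0.28) and -0.02 (-0.28 to 0.23).

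Calcineurin genes did not pass the test, 0 of 4, where 9.96% of all genes tested were called. The phosphatase pairs a catalytic A subunit (PPP3CA, PPP3CB or PPP3CC) with the regulatory subunit PPP3R1. PPP3R1 stood at 86.5, 92.2 and 90.2 CPM in shCUEDC1 1, 2 and 3, against 87.0, 89.1 and 88.0 CPM in shNC 1, 2 and 3, and the groups overlapped (log2 difference 0.03, 95% interval -0.08 to 0.14). Of its exon bases 34.6% overlap other annotated genes, so its counts are uncertain. PPP3CB, the most abundant A subunit, stood at 73.1, 74.0 and 72.1 CPM in shCUEDC1 1, 2 and 3, against 80.2, 83.5 and 83.4 CPM in shNC 1, 2 and 3. All shCUEDC1 libraries lay below all shNC libraries, with a log2 difference of -0.17 (SE 0.0494, adjusted p by edgeR = 0.0549), and without shNC 3 it was called lower (-0.16, adjusted p by edgeR = 0.0107). PPP3CA differed by 0.01 (-0.13 to 0.15) and PPP3CC by -0.06 (-0.33 to 0.21). The summed A subunit level was 92.4 ± 3.28 TPM in shCUEDC1 and 102 ± 3.43 TPM in shNC, without overlap between the groups.

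Of the NFAT factors NFATC2 fell, and NFATC1, NFATC3 and NFAT5 were not called. NFATC1, NFATC2 and NFATC3 are freed for nuclear entry by calcineurin, whereas NFAT5 answers to osmotic stress and lacks the calcineurin docking region. NFATC2 (chr20:51386957-51562831, GRCh38, minus strand) stood at 5.71, 5.88 and 5.86 CPM in shCUEDC1 1, 2 and 3, against 10.2, 9.98 and 10.3 CPM in shNC 1, 2 and 3. The libraries of a group lay close together and the groups far apart, and shNC 3 matched the other shNC libraries. NFATC2 fell by 42.7%, a log2 change of -0.80 (95% interval -1.04 to -0.57, adjusted p by edgeR = 0.00168). It was the only member called in each of the 6 fits that left out 1 library, where its log2 change ranged from -0.82 to -0.79 and its highest adjusted p by edgeR was 0.0180. None of its exon bases overlap another annotated gene. NFATC2 made up 5.07 ± 0.165% in shCUEDC1 and 8.73 ± 0.375% in shNC of the summed TPM of NFATC1 to NFATC4 and NFAT5, and the sum was 34.3 ± 1.54 TPM in shCUEDC1 and 35.3 ± 2.59 TPM in shNC, with overlap between the groups.

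NFAT5 was the most abundant of the 4 and stood at 96.6, 95.3 and 95.05 CPM in shCUEDC1 1, 2 and 3, against 93.3, 90.4 and 118 CPM in shNC 1, 2 and 3. The shNC 3 library was far above the rest, and the log2 difference of NFAT5 was -0.07 (95% interval -0.28 to 0.14) with 6 libraries and 0.06 without shNC 3. NFATC1 differed by 0.04 (-0.26 to 0.34) and NFATC3 by 0.03 (-0.25 to 0.32). For NFATC3 52.4% of exon bases overlap other annotated genes.

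**Figure D4:**
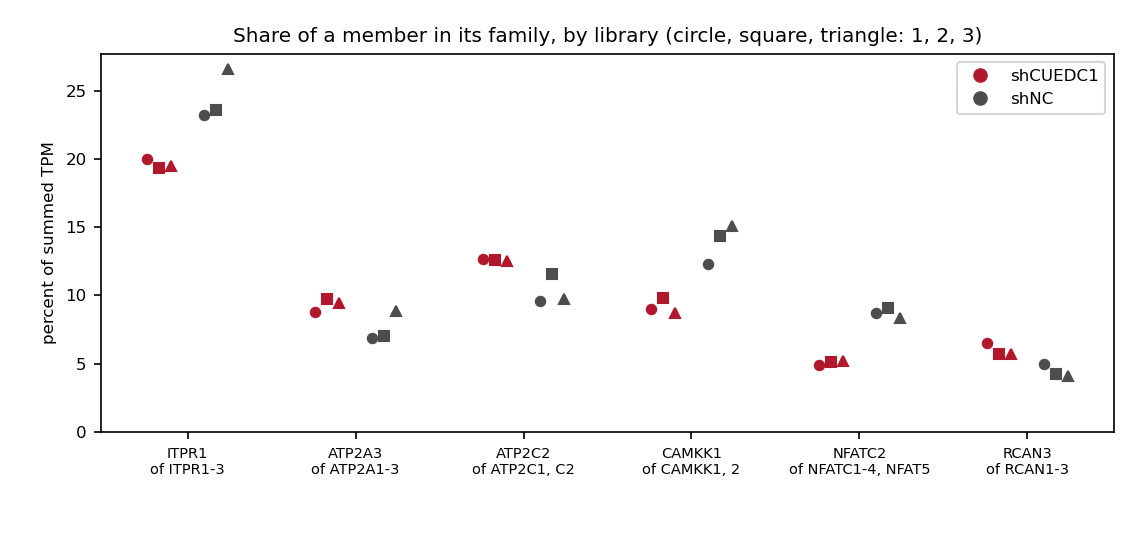
Share of the summed TPM of its family taken by 1 member, in percent, in each library (circle, square and triangle for libraries 1, 2 and 3), with shCUEDC1 left of shNC. NFATC2 made up 5.07 ± 0.165% in shCUEDC1 and 8.73 ± 0.375% in shNC, and of the 6 genes shown the groups overlap for ATP2A3 alone.

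The RCAN genes encode regulators that bind and inhibit calcineurin, and RCAN1 is a known target of NFAT. RCAN1 stood at 316, 330.4 and 335 CPM in shCUEDC1 1, 2 and 3, against 351, 362 and 377 CPM in shNC 1, 2 and 3. Every shCUEDC1 library was below every shNC library, with a log2 difference of -0.15 (SE 0.0467, adjusted p by edgeR = 0.0716), which did not pass the test. Without shNC 3 it was called, at -0.12 (adjusted p by edgeR = 0.0196). RCAN3 stood at 36.4, 32.1 and 33.8 CPM in shCUEDC1 1, 2 and 3, against 30.4, 28.5 and 28.2 CPM in shNC 1, 2 and 3. Its groups did not overlap either, with the opposite sign, 0.23 (SE 0.0720, adjusted p by edgeR = 0.0711). It was called without shNC 3 (0.22, adjusted p by edgeR = 0.0192). A gene on the opposite strand overlaps 15.2% of the RCAN3 exon bases, and whether counting used strand is not known. RCAN2 had estimated counts of 2, 3.98 and 2 in shCUEDC1 1, 2 and 3 and 6, 7 and 2.97 in shNC 1, 2 and 3 and was not tested.

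The promoters of NFATC2, which fell, of RCAN1, a textbook target of NFAT, and of the called members ITPR1 and TRPM4 are shown so that their NFAT core motifs can be compared. Each runs from 250 bases before to 50 after an annotated start (RefSeq, GRCh38.p14), 5′ to 3′ on the gene's strand, and capitals mark the NFAT core motif GGAAA or its reverse complement TTTCC. Promoters were found there for 38 of the 49 symbols, not for ATP2C2, LETM1 or ATP2A3. RYR1 and CAMKK1, which were also called, are not shown, and no rule chose the genes shown. Where a gene has several starts, the window with most matches is printed, and the gene table does not show which start was used.
NFATC2: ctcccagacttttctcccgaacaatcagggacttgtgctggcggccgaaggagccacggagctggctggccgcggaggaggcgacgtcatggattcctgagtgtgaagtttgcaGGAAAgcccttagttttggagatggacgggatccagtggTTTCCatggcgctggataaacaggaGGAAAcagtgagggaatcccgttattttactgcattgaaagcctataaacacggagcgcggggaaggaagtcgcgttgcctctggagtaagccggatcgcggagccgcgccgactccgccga
ITPR1: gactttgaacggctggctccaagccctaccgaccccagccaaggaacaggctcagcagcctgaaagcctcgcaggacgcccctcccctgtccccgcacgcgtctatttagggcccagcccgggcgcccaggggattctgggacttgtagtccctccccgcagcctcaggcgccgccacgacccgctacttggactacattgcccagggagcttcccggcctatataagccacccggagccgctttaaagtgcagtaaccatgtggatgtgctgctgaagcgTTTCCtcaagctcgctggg
TRPM4: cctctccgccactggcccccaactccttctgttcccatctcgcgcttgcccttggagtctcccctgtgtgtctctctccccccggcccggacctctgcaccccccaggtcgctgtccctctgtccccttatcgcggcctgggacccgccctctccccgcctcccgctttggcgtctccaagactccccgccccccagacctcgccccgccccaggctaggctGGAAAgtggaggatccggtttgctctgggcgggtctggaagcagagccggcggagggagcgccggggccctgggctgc
RCAN1: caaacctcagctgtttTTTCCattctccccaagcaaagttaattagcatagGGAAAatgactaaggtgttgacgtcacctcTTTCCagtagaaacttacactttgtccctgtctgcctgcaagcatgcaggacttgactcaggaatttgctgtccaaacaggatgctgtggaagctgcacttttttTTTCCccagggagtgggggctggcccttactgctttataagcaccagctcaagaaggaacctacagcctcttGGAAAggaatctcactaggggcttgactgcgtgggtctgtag
The NFATC2 window (chr20:51562790-51563089, minus strand) holds 3 matches, and 9.94% of 35116 promoter windows of this length hold at least 3. It is the fuller of 2 listed windows, and among 3606 genes with 2 windows 17.9% have at least 3 matches in the fuller one. The ITPR1 window (chr3:4493098-4493397, plus strand) and the TRPM4 window (chr19:49157542-49157841, plus strand) hold 1 each, and 61.2% of windows hold at least 1. The RCAN1 window (chr21:34526773-34527072, minus strand), an internal start among 6 listed, holds 5, and 0.74% of single windows hold at least 5. As it is the fullest of 6, it is better set against the 57 genes with 6 windows, of which 3 (5.26%) have at least 5 matches in their fullest. These are matches of letters and not measured binding sites.

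Other genes of the pathway were described from 6 lists that do not overlap with the members. These lists were also chosen with earlier results of these data known. Their counts are set against the same 5.19% of all genes called higher and 4.77% called lower. Without shNC 3 the shares of all genes are 14.3% higher and 13.8% lower. Regulators of store release and entry had 0 called higher and 3 lower among 22 tested (median log2 difference -0.07), and 0 higher and 5 lower without shNC 3. JPH2, which tethers the endoplasmic reticulum to the plasma membrane, was at 26.7 ± 0.191 CPM in shCUEDC1 and 39.2 ± 7.11 CPM in shNC (adjusted p by edgeR = 0.0199), with shNC 3 the lowest shNC library. PKD2, a calcium-permeable channel, was at 18.6 ± 0.00645 CPM in shCUEDC1 and 24.0 ± 2.01 CPM in shNC (adjusted p by edgeR = 0.0219). HOMER1, a scaffold that binds IP3 receptors, was at 38.0 ± 1.87 CPM in shCUEDC1 and 46.5 ± 2.65 CPM in shNC (adjusted p by edgeR = 0.0262). Phospholipase C enzymes and Gq proteins act before the IP3 receptors. Their list also holds the inositol phosphate enzymes ITPKA, ITPKB, ITPKC, INPP5A and INPP1. It had 0 called of 19 tested by edgeR with 6 libraries (median 0.07), with 2 higher and 3 lower without shNC 3. Calcium-binding proteins of the endoplasmic reticulum lumen and secretory pathway had 2 called higher and 1 lower among 14 (median 0.02). Without shNC 3 they had 2 higher and 3 lower. NUCB2, nucleobindin 2, rose by 0.49 on the log2 scale (adjusted p by edgeR = 0.00168), the chaperone calreticulin, CALR, by 0.26 (adjusted p by edgeR = 0.0468), and RCN2, a reticulocalbin, fell by 0.20 (adjusted p by edgeR = 0.0168).

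The list of kinases, anchors and inhibitors of calcineurin and NFAT had 3 called higher and 0 lower among 21 tested (median 0.03). Without shNC 3 it had 7 higher and 0 lower. It also holds the nuclear transport genes IPO8, KPNB1 and XPO1, and FKBP1A, FKBP1B and PPIA. KPNB1 was among the 7 without shNC 3 (log2 difference 0.18, adjusted p by edgeR = 4.54e-04). LRRK2, a kinase that restrains NFAT in mouse immune cells, was at 27.8 ± 1.47 CPM in shCUEDC1 and 17.2 ± 0.515 CPM in shNC, a log2 change of 0.69 (adjusted p by edgeR = 7.50e-04). CABIN1, a calcineurin inhibitor, was at 35.9 ± 2.81 CPM in shCUEDC1 and 26.6 ± 1.5 CPM in shNC (adjusted p by edgeR = 0.00843), and AKAP5, which anchors calcineurin, at 9.30 ± 0.568 CPM in shCUEDC1 and 6.23 ± 0.617 CPM in shNC (adjusted p by edgeR = 0.0154). The list of calmodulin effectors and calcium-binding partners had 2 called higher and 1 lower among 19 (median -0.03). Without shNC 3 it had 2 higher and 6 lower among 20. It also holds genes further downstream, CREB1, HDAC4, HDAC5, MEF2A, MEF2C, MEF2D, PRKAA1 and PRKAA2. HDAC4 and MEF2A were among the 6 lower without shNC 3 (adjusted p by edgeR = 0.00958 and 0.0322). ADCY1, an adenylyl cyclase that calmodulin stimulates, fell by 0.85 on the log2 scale (adjusted p by edgeR = 0.0129), while CALD1, caldesmon, rose by 0.26 (adjusted p by edgeR = 0.0207) and PRKAA2, an AMPK catalytic subunit, by 0.43 (adjusted p by edgeR = 0.0288). Family members outside the set had 1 called higher and 1 lower among 15 (median -0.22), and 1 higher and 4 lower without shNC 3. NFATC4 rose by 0.37 (adjusted p by edgeR = 0.0452), opposite in sign to NFATC2, and the cold-sensing channel TRPM8 fell at a low level, 0.239 ± 0.0277 CPM in shCUEDC1 and 1.03 ± 0.385 CPM in shNC (adjusted p by edgeR = 0.0134). Of these named genes NUCB2 and LRRK2 were called in all 6 fits that left out 1 library. JPH2, HOMER1 and RCN2 stayed called without shNC 3 and were not called without any other single library. Leaving out shNC 1 or a single shCUEDC1 library ended the calls of CALR, PKD2, AKAP5, CALD1, PRKAA2 and NFATC4. The call was also lost for TRPM8 without any 1 of the shCUEDC1 libraries, for CABIN1 without shCUEDC1 1 or 2 and for ADCY1 without shCUEDC1 2 or 3. The highest adjusted p by edgeR in those fits was 0.180, for NFATC4.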

How the data were processed

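Poly(A)-selected RNA of 6 T47D libraries was sequenced after random-primed cDNA synthesis, per the labels' protocols. The submitters' processing notes name GRCh38.p13. No source used here gives the aligner, the counting program or its strand setting. The deposited estimated counts, read counts per the file headers, are not normalised and partly fractional. The deposited FPKM and TPM values are expression levels that the authors normalised for length and depth. A deposited signal column per library, the authors' counts divided by a size factor, was not used, nor were the authors' group means.

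Estimated counts were rounded, filtered with filterByExpr (minimum count 10), normalised by TMM and tested in R 4.3.3 by the robust quasi-likelihood test of edgeR 4.0.16. P-values were adjusted over every tested gene by the Benjamini-Hochberg method. An adjusted p under 0.05 makes a gene called, "rose" and "fell" are used of called genes only, and differences are shCUEDC1 over shNC. Levels between genes are compared by TPM, and promoter and overlap annotation came from RefSeq and GENCODE v29. The members, roles and pathway lists were chosen with earlier results of these data known. A gene of the list of further family members is not reported here and was left out of its counts. Per-library values follow a rule: called members, members called without shNC 3 with a log2 difference of at least 0.3, the member with the highest TPM in each role, and members with groups apart by at least 0.5. Per-library values of other members were added after their values were seen. Up to 4 called genes of each pathway list are named. Alternatives were RLE factors, other low-count filters, DESeq2 1.42.0, limma-trend (limma 3.58.1) on log2(FPKM + 0.5) and log2(FPKM + 0.1), a block for the replicate number, and fits without 1 library each.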

Additional observations from a re-analysis of the deposited data

How the results depend on the processing

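With 6 libraries, RLE factors, other filters, DESeq2 and limma-trend gave between 6 and 7 called members and between 1145 and 1462 called genes in all. Leaving out 1 library gave between 1 and 17 members and between 468 and 3925 genes in all. Those fits called 0 to 5 other family members, 0 to 5 genes of the phospholipase C and Gq list and 0 to 5 store regulators. They also called 1 to 5 calcium-binding proteins of the endoplasmic reticulum lumen and secretory pathway. Of the calcineurin and NFAT list they called 1 to 7 genes, and of the calmodulin effector list 0 to 8. Only the fit without shNC 3 gave more members than 7.

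Replicate numbers are shared by the groups, but nothing in the labels pairs them, and the deviations of same-numbered libraries correlated at -0.01, -0.05 and -0.02. With the replicate block 4 members were called instead of 7 and 1117 genes in all instead of 1377, and the adjusted p was 0.0532 for RYR1, 0.0905 for LETM1 and 0.0595 for CAMKK1. Of the other genes named, NFATC4 (0.0507) and PRKAA2 (0.0502) lost their calls with the block. Other family members had 1 call instead of 2 with the block and 1 with at least 1 CPM in 3 libraries. They had 0 with limma-trend on log2(FPKM + 0.5) and 1 with log2(FPKM + 0.1). The phospholipase C and Gq list had 1 call instead of 0 with the block and 1 by DESeq2. The filter of at least 1 CPM left RYR1 untested. On FPKM its adjusted p was 0.345 (pseudocount 0.5) and 0.196 (pseudocount 0.1), and that of LETM1 0.107 and 0.104.

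Without shNC 3 the sign turned for ORAI1 (-0.0030), ITPR2 (0.13) and NFAT5 (0.062), none of them called in either fit. Over the 6 fits that left out a library the estimates ranged from -0.0030 to 0.13 for ORAI1, from -0.14 to 0.13 for ITPR2 and from -0.14 to 0.062 for NFAT5, and the cause was not tested. Leaving out a library also turned the sign of other members that were not called with 6 libraries, TRPM7 (-0.084 to 0.041) and NFATC3 (-0.073 to 0.13) among them. The 7 called members and CUEDC1 kept their direction under every alternative in which they were tested. Depth limits RYR1, RCAN2, ATP2B2 and SLC8A1 most.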
